A study of Mus musculus with 2 samples.

Results

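The genes Dcx, Sox11, Sox4, Igfbpl1, Draxin, Eomes, Neurod1, Dlx1, Dlx2 and Tubb3, which mark the birth and early growth of neurons, were followed across the cell types of the irradiated and the mock-irradiated mouse brain. They were taken by their symbols, and all 10 were found among the 27998 genes of the count matrices. The data were single-nucleus RNA sequencing (snRNA-seq) of frozen whole brains, a droplet method that counts unique molecular identifiers (UMIs) per gene in each nucleus. ShamRT-28d was 1 library of C57BL/6 mouse brain that the labels call untreated and the study's methods call mock-irradiated, and WBRT-28d was 1 library of C57BL/6 brain taken 28 days after whole-brain irradiation at 2 Gy in each of 5 fractions, 10 Gy in all. Each library pooled the brains of 2 mice, so no comparison between the conditions has a replicate check, and no p-value is given. The labels give no genotype, age or sex for either group, and the study's methods name its wild-type mice as young C57BL/6J females without an age at irradiation for these libraries.

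New neurons arise in the adult rodent brain in the ventricular-subventricular zone, whose neuroblasts migrate to the olfactory bulb and become GABAergic interneurons, and in the dentate gyrus, where glutamatergic granule neurons are added. Stem cells divide into intermediate progenitors, which switch on proneural and homeodomain factors, leave the cell cycle, and then express the cytoskeletal and guidance genes of a migrating cell. Neurogenesis is known to be among the processes of the brain most sensitive to ionizing radiation.

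The members stand at different steps of that sequence. Eomes (Tbr2) and Neurod1 are transcription factors of the glutamatergic lineage, and Dlx1 and Dlx2 are homeodomain factors of the GABAergic lineage. Sox4 and Sox11 are the SoxC factors of immature neurons. Dcx (doublecortin) binds microtubules in migrating neuroblasts and Tubb3 is a neuronal beta-tubulin. Draxin is a secreted repulsive guidance protein, and Igfbpl1 is a secreted protein related to the insulin-like growth factor binding proteins.

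After filtering, 10342 nuclei were kept in ShamRT-28d (40861521 UMIs, median 2326 per nucleus) and 14043 in WBRT-28d (56831740 UMIs, median 2491). The libraries shared 43 cell barcodes, 36 of them among kept nuclei. The nuclei fell into 34 clusters, which were formed with the members left out of the clustering genes, and 16 cell classes were named from marker genes. These names were rebuilt here and are written as "-like". Levels are given as CPM, the UMIs of a gene per 1e+06 UMIs of the nuclei summed, and every interval in parentheses is an exact 95% interval that covers counting error only. Each is a comparison of 2 libraries, and what differed between the pools for other reasons cannot be told apart from irradiation. "Higher" and "lower" in counts of genes mean past a fold of 1.5, for genes with at least 20 UMIs over both libraries.

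Genome positions are those of GENCODE on GRCm38. Dcx lies on chrX:143855842-143933311 (minus strand), Sox11 on chr12:27334264-27342574 (minus), Sox4 on chr13:28948919-28953713 (minus), Igfbpl1 on chr4:45809468-45826923 (minus) and Draxin on chr4:148098437-148130698 (minus). Eomes lies on chr9:118478212-118486132 (plus), Neurod1 on chr2:79452521-79456751 (minus) and Tubb3 on chr8:123411424-123422015 (plus). Dlx1 (chr2:71528113-71533981, plus) and Dlx2 (chr2:71543408-71546754, minus) are neighbors transcribed towards each other, with 9426 bases between their 3′ ends. The reads were aligned to a pre-mRNA reference, so introns counted as well as exons, and 5 members overlap another annotated gene: Dlx1 overlaps Dlx1as, Draxin overlaps Mad2l2, Sox4 overlaps Gm26735 and Neurod1 overlaps Gm26755 on the opposite strand, whereas Cerkl overlaps Neurod1 and Gm20388 overlaps Tubb3 on the same strand. The counts of these members are less certain for that reason.

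RefSeq promoter sequence (GRCm38.p6) was matched for 9 of the 10 members. The stretches of 250 bases before the start are shown for Draxin (chr4:148130699-148130948, minus strand), the member with the lowest ratio between the libraries, for Dlx2 (chr2:71546755-71547004, minus), the member with the largest part of its ShamRT-28d UMIs in the dividing or immature neuron-like nuclei described later, and for Sox11 (chr12:27342719-27342968, minus), whose level outside those nuclei differed in the opposite direction. Capitals mark matches, on either strand, to the E-box CANNTG, the homeodomain core TAATTA and the Sox cores ACAAAG and ACAAT.
Draxin: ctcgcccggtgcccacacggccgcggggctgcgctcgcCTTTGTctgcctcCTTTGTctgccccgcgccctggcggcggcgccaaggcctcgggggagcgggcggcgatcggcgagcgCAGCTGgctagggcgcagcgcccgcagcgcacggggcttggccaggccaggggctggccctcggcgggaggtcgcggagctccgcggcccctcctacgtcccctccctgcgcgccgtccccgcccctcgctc
Dlx2: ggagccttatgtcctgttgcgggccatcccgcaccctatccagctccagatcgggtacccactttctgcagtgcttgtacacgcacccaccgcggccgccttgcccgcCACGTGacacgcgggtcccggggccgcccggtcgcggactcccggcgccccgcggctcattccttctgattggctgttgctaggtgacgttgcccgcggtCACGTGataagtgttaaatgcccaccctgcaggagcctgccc
Sox11: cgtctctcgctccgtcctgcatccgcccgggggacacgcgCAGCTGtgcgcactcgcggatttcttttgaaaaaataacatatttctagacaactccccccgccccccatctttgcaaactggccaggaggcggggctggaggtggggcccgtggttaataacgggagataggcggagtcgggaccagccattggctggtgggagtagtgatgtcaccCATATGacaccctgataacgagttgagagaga
Dlx2 and Sox11 held 2 E-boxes each, and Draxin held 1 E-box and 2 copies of ACAAAG, with no overlap between matches. An E-box was found in 66.2% of all 32851 promoter windows of this length, TAATTA in 4.84%, ACAAAG in 16.5% and ACAAT in 27.7%, so these matches describe the windows and nothing more. Draxin has the window richest in G and C of the members, at 79.6%.

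Over all nuclei, 3 of the members were lower in WBRT-28d, and these were Draxin, Igfbpl1 and Dlx1, while the widely expressed members Tubb3, Sox4 and Sox11 were close to even. Draxin was at 3.25 CPM in ShamRT-28d (133 UMIs) and at 0.862 CPM in WBRT-28d (49 UMIs), a ratio of 0.265 (0.187 to 0.370). Igfbpl1 was at 9.72 CPM (397 UMIs) and 3.47 CPM (197 UMIs), a ratio of 0.357 (0.299 to 0.424). Dlx1 was at 6.31 CPM (258 UMIs) and 3.73 CPM (212 UMIs), a ratio of 0.591 (0.490 to 0.711). The counting intervals of the 2 libraries did not overlap for any of these 3 genes.

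Neurod1 (116 and 110 UMIs, ratio 0.682, 0.520 to 0.893) and Dlx2 (66 and 62 UMIs, ratio 0.675, 0.470 to 0.970) lay just inside the fold of 1.5 that counted as a change. Dcx, by far the member with the most UMIs, was at 81.3 CPM in ShamRT-28d (3324 UMIs) and 69.2 CPM in WBRT-28d (3935 UMIs), a ratio of 0.851 (0.813 to 0.892). Sox11 (756 and 1186 UMIs) had a ratio of 1.13 (1.03 to 1.24) and Sox4 (438 and 643 UMIs) of 1.06 (0.933 to 1.19). Tubb3 (534 and 744 UMIs) was even, at a ratio of 1.0 (0.895 to 1.12). Eomes, which marks the intermediate progenitors of the dentate gyrus, had only 9 UMIs in ShamRT-28d and 5 in WBRT-28d, and no fold is given for it.

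Of the 9 members with at least 20 UMIs, 3 were lower by a fold of 1.5 and none was higher, against 9.5% of all 18537 such genes lower and 5.9% higher. The median log2 ratio of the members was -0.55, beside -0.01 for all genes. In sums of this kind fewer cells of a type and less RNA per cell cannot be told apart.

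**Figure D1:**
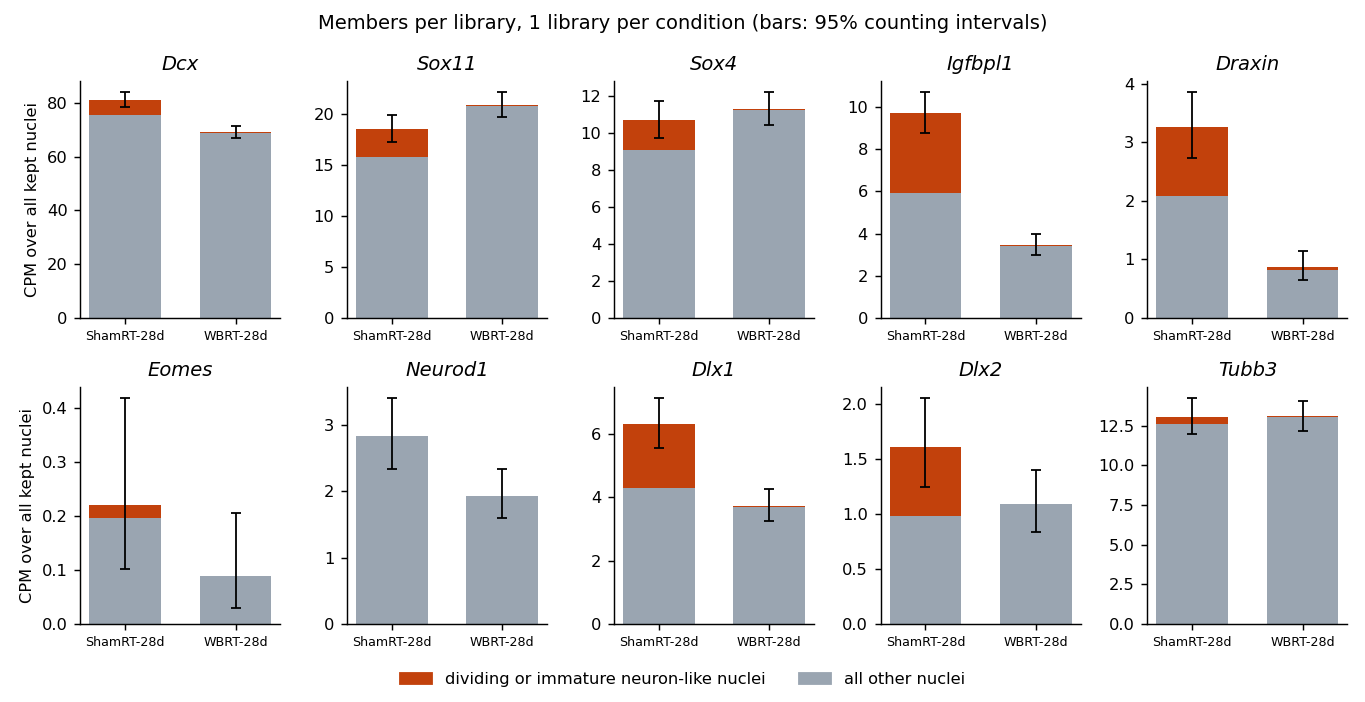
CPM of each member over all kept nuclei of the ShamRT-28d and the WBRT-28d library (y axis, its own scale in each panel), split into the part from dividing or immature neuron-like nuclei (orange) and the part from all other nuclei (gray), with 95% counting intervals of the total. The orange part made up 39.4% of the Dlx2 UMIs of ShamRT-28d and 0 of the 62 in WBRT-28d, whereas Neurod1 had none in either library.

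The nuclei with the highest level of most members formed 1 cluster, called dividing or immature neuron-like. Its leading genes were division genes (Top2a, Cenpf, Ect2) together with Igfbpl1, and all 12 immature neuron markers, among them Sp8, Sp9, Cd24a, Ccnd2 and Dlx6os1, were detected in its ShamRT-28d nuclei. It held 126 of the 10342 nuclei of ShamRT-28d, or 1.22% (1.02 to 1.45), and 11 of the 14043 of WBRT-28d, or 0.0783% (0.0391 to 0.140). The share in WBRT-28d was thus 0.0643 times that in ShamRT-28d (0.0313 to 0.119). The size of this ratio depended on the processing. With the nuclei called doublets kept, the cluster held 128 and 32 nuclei, a ratio of 0.176 (0.116 to 0.261). When nuclei were instead taken one by one for holding at least 3 of the 12 immature neuron markers, whatever their cluster, there were 859 and 1122 of them, a ratio of 0.962 (0.879 to 1.05), and only 92 and 3 of these lay in the class. That count is thus mostly of other nuclei. The class held 34.4% of the ShamRT-28d UMIs of the marker Sp8, but 3.97% of Stmn2 and 3.42% of Stmn1.

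Across the 34 clusters, 17.6% were lower in share by a fold of 1.5 and 35.3% were higher, and the dividing or immature neuron-like cluster had the second lowest ratio of them. The lowest was a glutamatergic cluster led by Syt9 and Nwd2, with 135 nuclei in ShamRT-28d and 2 in WBRT-28d. In the other direction, a spiny neuron-like cluster led by Stac and Drd3 had 14 and 205 nuclei. Clusters of neurons without division genes among their leading genes thus also differed widely between the libraries, and the part of uneven sampling of brain regions in the result was not tested.

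**Figure D2:**
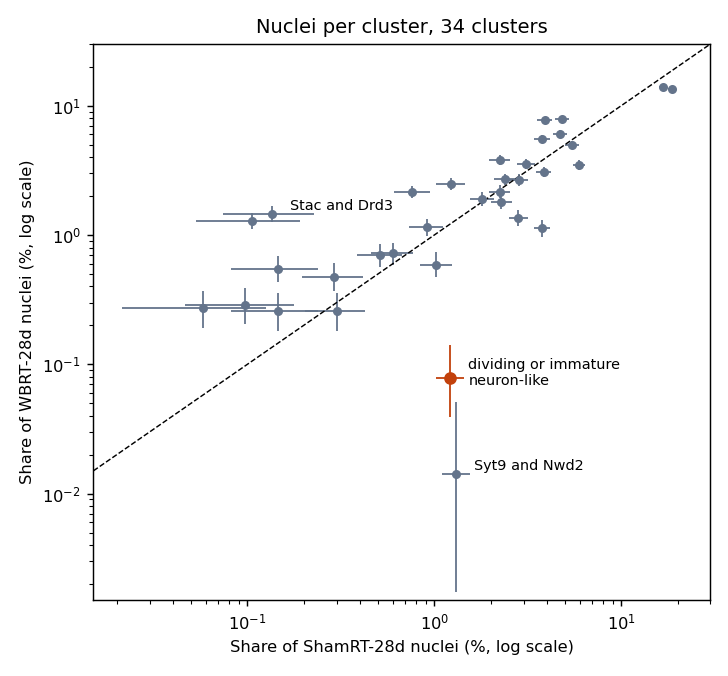
Share of ShamRT-28d nuclei (x axis, %, log scale) against share of WBRT-28d nuclei (y axis, %, log scale) for the 34 clusters, with 95% Clopper-Pearson intervals and a dashed line of equal shares. The dividing or immature neuron-like cluster (orange, 1.22% and 0.0783%) lies far below the line, next to the cluster led by Syt9 and Nwd2.

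The few WBRT-28d nuclei of the cluster were mostly of another make-up. Summed over the 7 markers of oligodendrocyte precursor cells (OPCs), the class held 1589 CPM in ShamRT-28d and 7592 CPM in WBRT-28d, whereas the 12 immature neuron markers summed to 3366 and 589 CPM. Sp8, Sp9, Cd24a, Prokr2 and Marcksl1 had 22, 33, 8, 2 and 8 UMIs in ShamRT-28d and 0 in WBRT-28d. A 0 in these WBRT-28d nuclei allows up to 52.0 CPM. Of these genes only Sp9, at 75.0 CPM in ShamRT-28d, was above that limit. At least 3 OPC markers were found in 8 of the 126 ShamRT-28d nuclei and in 7 of the 11 WBRT-28d nuclei. Without the OPC-marked nuclei, the class held 118 and 4 nuclei, a ratio of shares of 0.0250 (0.00669 to 0.0656). The OPC-marked nuclei themselves did not differ in share beyond counting error, with a ratio of 0.644 (0.199 to 2.03).

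Division separated the cluster further. With at least 2 of 12 division genes as the mark of a dividing nucleus, ShamRT-28d held 46 dividing and 80 other nuclei, and WBRT-28d held 8 and 3. Of the 8 dividing nuclei of WBRT-28d, 7 were the OPC-marked ones, so that 38 dividing nuclei without the OPC mark in ShamRT-28d stood against 1 in WBRT-28d. That 1 nucleus held 5 astrocyte markers, 1 immature neuron marker and 0 members. An OPC-marked nucleus held 15150 of the 57695 UMIs of the WBRT-28d class, so it weighs on each level there. It had 7 oligodendrocyte markers, 3 immature neuron markers and 5 members, and whether it was a mixture was not tested. The non-dividing nuclei had a share ratio of 0.0276 (0.00558 to 0.0837).

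Nuclei that detected several members at once were found in both libraries, and they were a small share of the other classes counted. The glutamatergic, spiny and other GABAergic neuron-like classes were not counted. In the class, 75 of 126 ShamRT-28d nuclei and 4 of 11 WBRT-28d nuclei held 3 or more members, with a median depth of 2674.5 and 3524 UMIs. Among interneuron-like nuclei 16 of 690 and 20 of 806 held 3 or more, and among dentate granule-like nuclei 5 of 615 and 8 of 489. Among microglia-like nuclei, which should lack most of these genes and give the background of free RNA, 0 of 564 and 0 of 695 did so, at median depths of 1663 and 1870 UMIs. Those zeros allow shares of up to 0.532% and 0.432%.

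The level in the class, as distinct from the number of nuclei, was lower in WBRT-28d for most members with enough UMIs when all 11 nuclei were taken. Dcx was at 516 CPM in ShamRT-28d (227 UMIs in 86 nuclei) and 260 CPM in WBRT-28d (15 UMIs in 5 nuclei), a ratio of 0.504 (0.277 to 0.849). Igfbpl1 was at 350 CPM (154 UMIs) and 69.3 CPM (4 UMIs), a ratio of 0.198 (0.0533 to 0.518). Dlx1 was at 189 CPM (83 UMIs) and 34.7 CPM (2 UMIs), a ratio of 0.184 (0.0219 to 0.685), and its partner Dlx2 had 26 UMIs (59.1 CPM) against 0. The interval of the Dlx2 ratio, 0 to 1.16, included 1, so a lower level of Dlx2 was not detectable at this depth.

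Of the 7 members with 20 UMIs in the class, 6 had a measured level lower by a fold of 1.5 and Dlx2 was at 0 UMIs, while 32.7% of the 5027 genes with as many UMIs were lower there, those at 0 included, and 22.2% higher. The median log2 ratio of the 7 was -1.30, or -1.14 with Dlx2 set to 3 counts in WBRT-28d, beside -0.16 for all genes. Sox11 had 113 and 6 UMIs (ratio 0.405, 0.146 to 0.909), Sox4 had 67 and 4 (0.455, 0.121 to 1.22), and Draxin had 48 and 3 (0.477, 0.0950 to 1.48). The intervals of Sox4, Draxin and Dlx2 included 1, and those of Dcx, Sox11, Igfbpl1 and Dlx1 did not.

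Without the OPC-marked nuclei, Dlx1 was the only one of these 7 members with a measured level still lower by a fold of 1.5, and Dlx2 was again at 0 UMIs in WBRT-28d. In the remaining 118 and 4 nuclei Dcx had 221 and 13 UMIs, a ratio of 1.59 (0.833 to 2.77), and Sox11 had 105 and 4 UMIs, a ratio of 1.03 (0.275 to 2.71). Igfbpl1 had 152 and 4 UMIs (0.711, 0.191 to 1.86) and Draxin 47 and 2 (1.15, 0.135 to 4.39), and Sox4 had 64 and 3 (1.27, 0.254 to 3.87). Dlx1, with 77 and 1 UMIs, stayed lower at a ratio of 0.351 (0.00877 to 2.01), and Dlx2 had 24 and 0. The median log2 ratio was then 0.04. The intervals are wide, and a difference in level of 1.5-fold in either direction was not detectable at this depth.

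**Figure D3:**
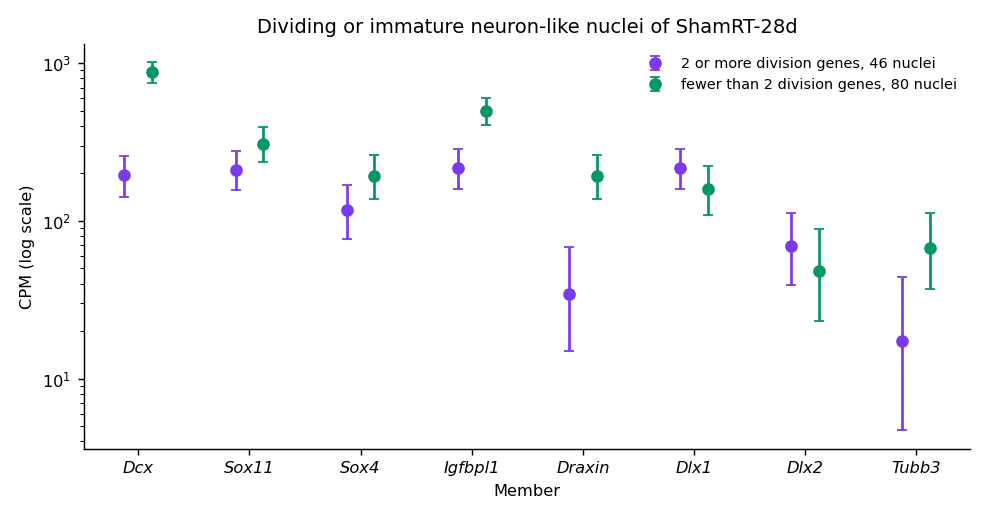
CPM of 8 members (y axis, log scale, 95% Poisson intervals) in dividing or immature neuron-like nuclei of ShamRT-28d, for the 46 nuclei with 2 or more division genes (purple) and the 80 others (green). Dcx, Igfbpl1 and Draxin were higher in the other nuclei, with separate intervals. The intervals of Tubb3, Sox11, Sox4, Dlx1 and Dlx2 overlapped.

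Within ShamRT-28d the members of migration and differentiation, Dcx, Draxin, Tubb3 and Igfbpl1, had lower levels in dividing nuclei than in the others. Dcx was at 194 CPM in the 46 dividing nuclei (45 UMIs) and 875 CPM in the 80 others (182 UMIs), a ratio of 0.222 (0.156 to 0.309). Draxin was at 34.5 CPM (8 UMIs) and 192 CPM (40 UMIs), a ratio of 0.179 (0.0726 to 0.389), and Tubb3 at 17.2 CPM (4 UMIs) and 67.3 CPM (14 UMIs), a ratio of 0.256 (0.0615 to 0.816). Igfbpl1 was intermediate, at 216 and 500 CPM (50 and 104 UMIs, ratio 0.431, 0.302 to 0.610).

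The transcription factors had intervals that included 1 between dividing and other nuclei. Sox11 had a ratio of 0.687 (0.464 to 1.01) and Sox4 of 0.606 (0.357 to 1.01). Dlx1 had a ratio of 1.36 (0.859 to 2.18) and Dlx2 of 1.44 (0.613 to 3.54). Because 8 of the dividing nuclei carried OPC markers, the ratios were repeated without them, and Dlx1 was then 1.90 (1.18 to 3.07), Sox11 0.911 (0.600 to 1.37), Sox4 0.853 (0.492 to 1.45) and Dlx2 1.99 (0.822 to 5.01). Without them Dcx was 0.305 (0.210 to 0.433) and Draxin 0.249 (0.0940 to 0.561), while Igfbpl1 moved nearer to even, from 0.431 to 0.656 (0.456 to 0.932). Tubb3 was 0.305 with an interval that then included 1 (0.0561 to 1.09). These nuclei come from 1 library, and the intervals cover counting only.

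Most nuclei of the class held more genes of the GABAergic than of the glutamatergic lineage. By which of 2 lists, 10 GABAergic and 10 glutamatergic genes with no member in either, had more genes detected, 113 ShamRT-28d nuclei were GABAergic, 5 glutamatergic and 8 tied, and WBRT-28d had 8, 0 and 3. A count of 0 allows a share of up to 0.0214% of WBRT-28d nuclei. Sp8, Sp9, Dlx6os1 and Prokr2 of the GABAergic list were also among the immature neuron markers that named the class. No gene of the glutamatergic list was. The GABAergic majority was thus in part set by how the class was named, and it is no separate evidence of lineage. A Dcx UMI was found in 81 of the 113 GABAergic nuclei of ShamRT-28d and in 4 of the 8 of WBRT-28d. Since 7 of the 11 WBRT-28d nuclei of the class were OPC-marked, these 8 included OPC-marked nuclei. In the GABAergic nuclei of ShamRT-28d, Dcx was at 561 CPM (217 UMIs), Igfbpl1 at 360 CPM (139 UMIs) and Dlx1 at 209 CPM (81 UMIs). The glutamatergic factors were nearly absent from the class, with Neurod1 at 0 UMIs in both libraries and Eomes at 1 UMI, in a ShamRT-28d nucleus of the glutamatergic group. For Neurod1 the 0 allows up to 6.82 CPM in ShamRT-28d.

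In ShamRT-28d, Dcx and Igfbpl1 were often detected in the same nuclei of the class. Igfbpl1 was found in 57.0% of the 86 nuclei with a Dcx UMI and in 32.5% of the rest. Sox11 was found in 51.2% and 42.5% of them, and Dlx2 in 14.0% and 22.5%. Deeper nuclei detect more of every gene, so these shares are a description of co-detection.

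**Figure D4:**
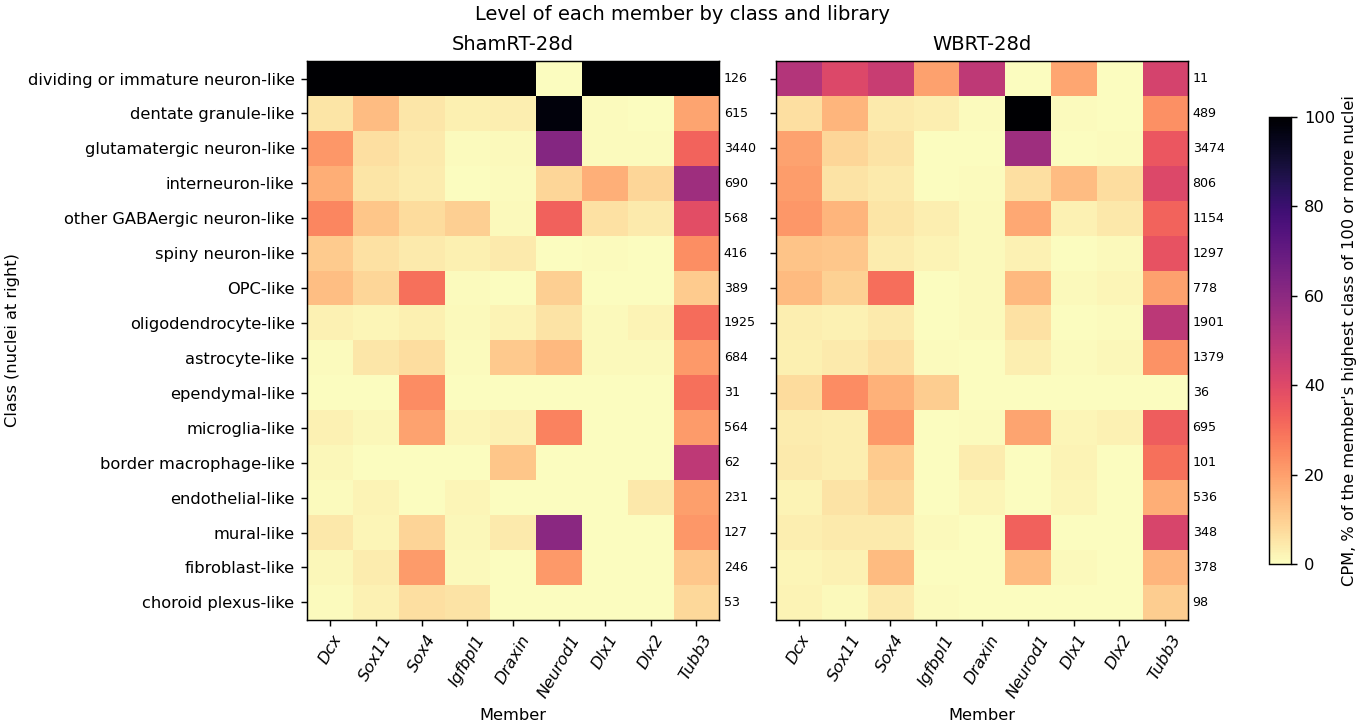
Level of 9 members (columns) in the 16 classes (rows, nuclei at right) of ShamRT-28d and WBRT-28d, as CPM in percent of the member's highest class of 100 or more nuclei in either library. Outside the dividing or immature neuron-like row, Neurod1 is highest in dentate granule-like nuclei, Sox4 is visible in OPC-like and microglia-like nuclei, and Tubb3 is spread over all classes. The color of Neurod1 in mural-like nuclei stands for 1 and 2 UMIs.

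Each member other than Neurod1 had its highest CPM in the dividing or immature neuron-like class, with the libraries pooled (for Eomes on 1 UMI), but 126 nuclei of the pooled class were from ShamRT-28d and 11 from WBRT-28d. In WBRT-28d alone Dlx2 was at 0 UMIs in the class and at 4.15 CPM in interneuron-like nuclei, and Tubb3 was at 17.3 CPM (1 UMI) in the class and 19.9 CPM in oligodendrocyte-like nuclei. The members differed in how much of their RNA was in the class. In ShamRT-28d the class, 1.22% of nuclei, held 39.4% of the UMIs of Dlx2, 38.8% of Igfbpl1, 36.1% of Draxin and 32.2% of Dlx1. It held 15.3% of the Sox4 UMIs, 14.9% of Sox11, 6.83% of Dcx and 3.37% of Tubb3. In WBRT-28d the largest part was 6.12%, for Draxin. Every member thus had most of its UMIs in other nuclei, and among these 8 members Dcx and Tubb3 had the largest part there.

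Mature neurons were the main site of Dcx by count. Glutamatergic neuron-like nuclei had 1988 and 1530 Dcx UMIs (111 and 99.9 CPM in ShamRT-28d and WBRT-28d), other GABAergic neuron-like nuclei 130 and 111 CPM, and interneuron-like nuclei 87.2 and 106 CPM. OPC-like nuclei had 69.8 and 73.6 CPM, with a UMI in 17.7% and 18.5% of nuclei, above the 1.95% and 3.31% of microglia-like nuclei (12.4 and 19.6 CPM). With the libraries pooled, Dcx in the dividing or immature neuron-like class was 4.13-fold its level in other GABAergic neuron-like nuclei, the next class, and in WBRT-28d alone the levels were 260 and 111 CPM.

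The SoxC factors were also found beyond neurons. Sox4 was at 45.6 and 46.3 CPM in OPC-like nuclei (62 and 127 UMIs) and at 29.5 and 32.2 CPM in microglia-like nuclei (31 and 46 UMIs), with close values in both libraries. With the libraries pooled, Sox11 in dentate granule-like nuclei (37.8 CPM, 31.9 to 44.4) and in other GABAergic neuron-like nuclei (36.4 CPM, 32.6 to 40.5) came next after the dividing or immature neuron-like class, with overlapping intervals. In WBRT-28d alone ependymal-like nuclei had 61.3 CPM, on 5 UMIs. Microglia-like nuclei had Sox11 at 3.81 and 8.40 CPM.

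The Dlx factors had a second site in interneurons. Interneuron-like nuclei had Dlx1 at 31.6 and 25.8 CPM (101 and 112 UMIs) and Dlx2 at 5.00 and 4.15 CPM (16 and 18 UMIs). Within them the cluster led by Vip and Adarb2 had Dlx1 at 48.6 CPM (37.3 to 62.3) in ShamRT-28d and 38.7 CPM (30.5 to 48.4) in WBRT-28d. The intervals of the 2 libraries overlapped.

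Dentate granule-like nuclei, a class named from markers of granule neurons, numbered 615 in ShamRT-28d (5.95%) and 489 in WBRT-28d (3.48%). No member was detected in 493 and 362 of them, and whether hippocampal progenitors fell in this class was not tested. Of the 6 members with 20 UMIs there, none was higher and none lower by a fold of 1.5, against 11.3% and 9.23% of 10780 genes. Dcx was at 27.3 and 33.7 CPM (53 and 64 UMIs, ratio 1.24, 0.845 to 1.81), Sox11 at 35.5 and 40.1 CPM (69 and 76 UMIs, ratio 1.13, 0.803 to 1.59), and Igfbpl1 at 10.3 and 12.1 CPM (20 and 23 UMIs, ratio 1.18, 0.618 to 2.26). Neurod1 was at 7.21 and 7.38 CPM (14 UMIs in each). The intervals allow differences of 1.5-fold or more for each of these 4 genes.

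Nuclei at the early steps of the hippocampal lineage were not identified, and Draxin and Eomes had few UMIs in the dentate granule-like class. In dentate granule-like nuclei Draxin had 7 UMIs in ShamRT-28d and 1 in WBRT-28d, a ratio of 0.146 (0.00324 to 1.14), and Eomes 1 and 0. Nuclei of this class with 3 or more members numbered 5 in ShamRT-28d and 8 in WBRT-28d. No separate cluster of immature granule neurons was seen, so a change in their number could not be measured here.

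Outside the dividing or immature neuron-like class, the picture changed by gene. Of the 9 members, 2 were lower, Igfbpl1 and Draxin, and none was higher, against 9.03% of 18512 genes lower and 5.95% higher. The median log2 ratio of the members was -0.15, beside -0.0047 for all genes. Dlx1 went from a ratio of 0.591 to 0.854 (0.696 to 1.05) and Dlx2 from 0.675 to 1.10 (0.730 to 1.69). Dlx1 was thus no longer past the threshold without the class, and Dlx2 had been just short of it with the class.

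Sox11 and Sox4 were higher in WBRT-28d outside the class, by less than the threshold. Sox11 was at 15.9 CPM in ShamRT-28d and 20.8 CPM in WBRT-28d, a ratio of 1.31 (1.19 to 1.44), and Sox4 at 9.18 and 11.3 CPM, a ratio of 1.23 (1.08 to 1.40). Leaving out any 1 cluster moved Sox11 between 1.24 and 1.35 and Sox4 between 1.16 and 1.28. Dcx was 0.901 (0.859 to 0.945) and Tubb3 1.03 (0.915 to 1.15).

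**Figure D5:**
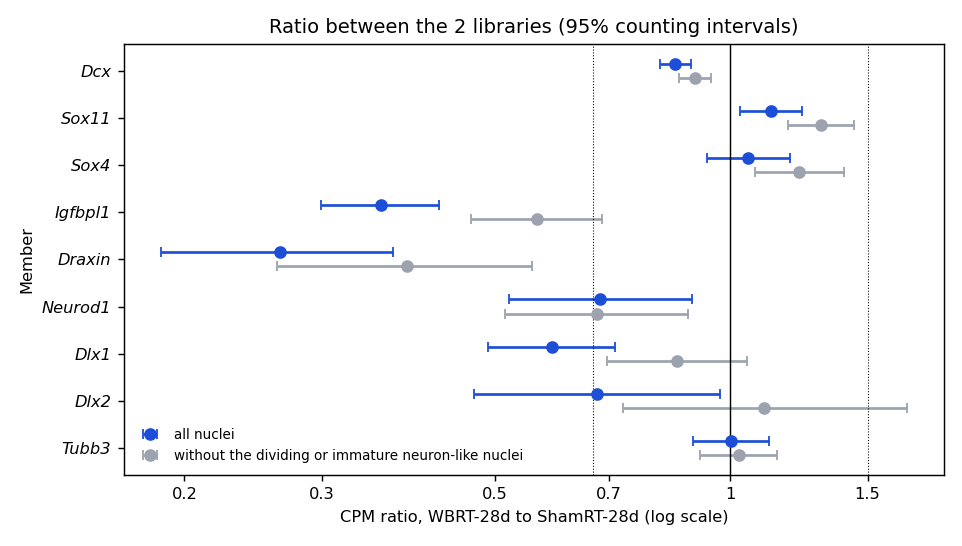
WBRT-28d level divided by ShamRT-28d level, from CPM (x axis, log scale) for 9 members over all nuclei (blue) and without the dividing or immature neuron-like nuclei (gray), with 95% counting intervals and dotted lines at a fold of 1.5. Dlx1 and Dlx2 move towards 1 without these nuclei, and Igfbpl1 and Draxin stay below the lower dotted line at 0.565 and 0.385.

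The lower Igfbpl1 outside the class came largely from 1 other GABAergic neuron-like cluster, led by Ebf2 and Baiap3. Its 489 ShamRT-28d nuclei had 98 UMIs (34.2 CPM, 27.8 to 41.7), found in 53 nuclei, and its 851 WBRT-28d nuclei had 8 UMIs (1.87 CPM, 0.807 to 3.69). Without this cluster the ratio of Igfbpl1 outside the class was 0.913 (0.730 to 1.14). In other neuron clusters Igfbpl1 had overlapping intervals in the 2 libraries. The GABAergic cluster led by Npffr2 and Chst9 had 36.8 and 35.6 CPM (16 and 59 UMIs), and the cluster led by Stac and Drd3 had 38.3 and 38.8 CPM (3 and 36 UMIs). Microglia-like nuclei had 6 and 1 UMIs of Igfbpl1 (5.71 and 0.70 CPM), and the part of free RNA in the difference was not tested.

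Draxin was also found in astrocytes of ShamRT-28d, at 12.04 CPM over the astrocyte-like class (22 UMIs), against 0.246 CPM in WBRT-28d (1 UMI). The astrocyte-like cluster led by Myoc and Gfap had 17 Draxin UMIs in 9 of 187 ShamRT-28d nuclei (32.0 CPM, 18.7 to 51.3) and 1 UMI in 267 WBRT-28d nuclei (1.15 CPM, 0.0292 to 6.43), a ratio of 0.0360 (0.000862 to 0.230). Other genes of the same nuclei differed in both directions. Gfap was even, at 428 and 438 CPM, Thbs4 was at 264 and 75.0 CPM, and Dll1, a Notch ligand, had 7 and 1 UMIs, whereas Myoc was at 328 and 599 CPM (ratio 1.83, 1.53 to 2.18), and Hes5 and Lpar1 had ratios of 1.79 (1.12 to 2.94) and 2.10 (1.28 to 3.59). The larger astrocyte-like cluster had 5 Draxin UMIs in ShamRT-28d and 0 in WBRT-28d. These genes of the cluster were named after their values were seen.

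A part of the Draxin count rested on a single nucleus. Of 14 Draxin UMIs in a glutamatergic cluster of ShamRT-28d, 13 were from 1 nucleus. Without the nucleus with the most Draxin UMIs in each library, the ratio outside the class was 0.425 (0.284 to 0.629), and without the Myoc and Gfap cluster it was 0.472 (0.317 to 0.698). Both values remained below the threshold.

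Neurod1 followed the glutamatergic neurons. The cluster led by Syt9 and Nwd2, present almost only in ShamRT-28d, had 16 Neurod1 UMIs (23.6 CPM, 13.5 to 38.3), the highest level of any cluster. Without it the ratio outside the class moved from 0.675 to 0.770 (0.582 to 1.02). Eomes was also found mainly in other GABAergic neuron-like nuclei, with 7 of its 9 UMIs in ShamRT-28d in 7 nuclei of the Ebf2 and Baiap3 cluster and 4 of its 5 in WBRT-28d in 1 nucleus. The Ebf2 and Baiap3 cluster had 315 CPM of GABA genes and also 103 CPM of glutamate transporter genes. The type and maturity of the single Eomes nuclei were not tested.

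The genes with the most similar pattern over the 34 clusters, libraries pooled, were sought by Pearson correlation of log2(CPM + 1). The clusters share 2 libraries and differ in depth, and the correlations are a description. Dlx1 and Dlx2 were each other's nearest gene (r = 0.87, and 0.78 without the dividing or immature neuron-like cluster), followed for Dlx1 by Dlx1as (0.80) and Abcb5 (0.77), and for Dlx2 by Phf6 (0.79) and Abcb5 (0.77). Dcx was nearest to the neuronal genes Atcay (0.86), Brinp2 (0.85) and Mir124a-1hg (0.84), and its values hardly moved without that cluster (0.89, 0.87 and 0.85). Neurod1 was nearest to Robo3 (0.81), Nwd2 (0.76) and Adcyap1 (0.75).

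The likeness of Draxin leaned on the dividing or immature neuron-like cluster. It was nearest to the cell cycle-related transcripts G2e3 (0.79), Lockd (0.77) and Ttk (0.77), which were at 0.54, 0.47 and 0.48 without the cluster. Sox11 was nearest to Hfm1 (0.82), Rps6ka6 (0.77) and Astn1 (0.75), and Sox4 to Cdc25a (0.77), Ptov1 (0.77) and Rhno1 (0.76). Igfbpl1 was nearest to Igsf9 (0.76), Gad1os (0.70) and Plppr3 (0.65), and Tubb3 to Zmiz2 (0.71), Blm (0.69) and Zdhhc19 (0.68). Eomes had too few UMIs to rank.

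The other genes of neurogenesis were read from lists, over all nuclei and against the same background of 9.5% lower and 5.9% higher. The division genes were lower together: 8 of 12 were lower, none was higher, and the median log2 ratio was -0.72. Top2a, a topoisomerase of dividing cells, had 317 and 102 UMIs (ratio 0.231, 0.183 to 0.290), with 85.2% of its ShamRT-28d UMIs in the dividing or immature neuron-like class. Mki67 had 235 and 149 UMIs (0.456, 0.369 to 0.562), and Hmmr, Aspm, Knl1, Kif11, Cenpf and Kif15 ranged from 0.236 to 0.648, while Diaph3, the list's most counted gene, was 0.918. Outside the class 3 of 12 were lower and 1 was higher, and the median log2 ratio was -0.05.

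Genes of the GABAergic olfactory lineage were split. Of 14 genes, 4 were lower and 1 was higher, with a median log2 ratio of -0.07. Sp8, a zinc finger factor of olfactory neuroblasts, had 64 and 22 UMIs (ratio 0.247, 0.145 to 0.407), and Prokr2, a receptor that guides neuroblasts to the olfactory bulb, had 61 and 29 UMIs (0.342, 0.212 to 0.540). Etv1 (0.654) and Zic1 (0.583) were lower too, and Gad2 was higher (1.53, 1.45 to 1.61). The class held 34.4% of the ShamRT-28d UMIs of Sp8, but 3.28% of Prokr2, 4.40% of Etv1 and 0.973% of Zic1. The lower levels of Prokr2, Etv1 and Zic1 thus lay mostly in other nuclei. The most counted genes Meis2 and Dlx6os1 were at 0.947 and 1.19, but Dlx6os1 was 1.5 outside the class, which held 21.7% of its ShamRT-28d UMIs. Outside the class the list had 4 genes higher and 3 lower (Sp8, Prokr2 and Zic1), with a median log2 ratio of 0.35.

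Lists of adhesion and of the cytoskeleton moved little. Of 19 adhesion and guidance genes 2 were higher and 1 lower. St8sia2, which puts polysialic acid on the adhesion molecule of neuroblasts, had 438 and 359 UMIs (ratio 0.589, 0.511 to 0.679), and 0.710 outside the class. Prok2, the ligand of Prokr2, had 20 and 149 UMIs (5.36, 3.35 to 9.02), Cxcl12 was 1.63, and the abundant Dcc, Dab1 and Erbb4 were 1.05, 1.31 and 1.41. None of 18 cytoskeletal genes passed the threshold (Dclk1 1.0, Mapt 1.04, Map2 1.12), and none of 6 SoxC partners and targets did (Pou3f2 1.11, Pou3f3 1.01, Tcf4 1.05).

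Of 16 genes of stem cells and Notch signaling, 6 were higher and none lower, with a median log2 ratio of 0.44. Nes, an intermediate filament of neural stem cells and endothelium, had 43 and 201 UMIs (ratio 3.36, 2.41 to 4.79). Vim was 2.16, Hes5 1.92, Gfap 1.83, Prom1 1.70 and Id4 1.52, and the most counted genes Lpar1, Notch2 and Notch1 were 0.846, 1.24 and 1.44. Astrocyte-like nuclei made up 6.61% of the first library and 9.82% of the second, endothelial-like nuclei 2.23% and 3.82%. Within the larger and the smaller astrocyte-like cluster the ratios were 0.526 and 0.656 for Vim, 1.40 and 1.02 for Gfap, 0.929 and 1.15 for Id4, 0.818 and 0.513 for Notch1, 0.926 and 0.520 for Notch2, 1.37 and 1.79 for Hes5 and 2.31 and 0.986 for Prom1. Vim rested on few UMIs, 10 and 13 in the larger cluster and 14 and 15 in the smaller one. Its intervals included 1 in both (0.213 to 1.34 and 0.295 to 1.47), as did those of Id4. The intervals of Notch2 in the larger cluster, and of Gfap and Prom1 in the smaller one, also included 1. Nes had 0 and 5 UMIs in the larger cluster and 2 and 3 in the smaller one.

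Of 12 measured genes of intermediate progenitors and proneural factors, 1 was higher, Mfng (1.62, 1.29 to 2.06), and none lower, with Elavl2, Elavl3 and Elavl4 at 0.943, 0.983 and 0.770. Of 12 genes of the glutamatergic granule lineage, 2 were lower, the cortical and hippocampal factor Neurod6 (810 and 520 UMIs, 0.462, 0.413 to 0.516) and Calb2 (224 and 161 UMIs, 0.517, 0.419 to 0.636), and none was higher. Prox1, the factor of dentate granule neurons, was even at 0.939, as were Zbtb20 at 1.07 and Nfia at 1.16. The dividing or immature neuron-like class held 0.494% of the ShamRT-28d UMIs of Neurod6 and 1.34% of those of Calb2.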

How the data were processed

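The authors deposited 1 filtered gene by barcode matrix of raw UMI counts per library, made with Cell Ranger 5.0.0 per the file headers, against a pre-mRNA reference of mm10. Seurat 3.0 and R 3.5.3 are credited to the submitters' processing notes. The deposited counts were not normalized. Barcodes under 500 genes or over 5% mitochondrial UMIs were dropped, and Scrublet (scanpy 1.11.5), run on each library, called 698 (6.09%) and 1626 (10.2%) of all its barcodes doublets, which were left out. Nuclei of both libraries were clustered with Seurat 5.3.0 (2000 variable genes without the members, 30 principal components, 20 neighbors, resolution 0.8). Of the members, Dlx1, Draxin, Eomes and Igfbpl1 would have been among the variable genes. Clusters were named from fixed marker lists by score thresholds set after the clusters were seen, and 6 clusters (175 and 562 nuclei) stayed unnamed. UMIs were summed per class and library. CPM intervals are exact Poisson, shares Clopper-Pearson and ratios conditional binomial, computed with scipy 1.17.1. Only the ratios and their intervals were tested on simulated data. These were Poisson counts, so clumping of UMIs in single nuclei was not tested. Named genes were the members, the 3 most counted genes of each list and those past a fold of 1.5, and the 3 genes most like each member (Gm and Rik names left out). Subsets by OPC markers and the genes of single clusters were chosen after the data were seen. A nucleus counted as dividing with 2 division genes. The members, lists and rules were chosen with earlier results of these data known. No columns of other samples were present. Depth was 40861521 and 56831740 UMIs in kept nuclei, and intervals and limits of a 0 (3 counts) cover counting error only.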

Additional observations from a re-analysis of the deposited data

How the results depend on the processing

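The median log2 ratio of the members over all nuclei was -0.77 to -0.40 under the 5 alternatives, with 3 to 5 members lower against 3 reported (5 with doublets kept and with the mean of CPM per nucleus). The ratio of shares of the dividing or immature neuron-like class moved to 0.176 with doublets kept (128 and 32 nuclei). It was 0.0250 without OPC-marked nuclei and 0.0276 without dividing nuclei, a pair of settings chosen after seeing the data. Single nuclei with at least 3 immature neuron markers, most of them outside the class, had a ratio of 0.962 (859 and 1122). Within the class, the median log2 ratio of -1.30 turned to 0.041 without OPC-marked nuclei and to 0.50 without dividing nuclei, settings that leave 4 and 3 WBRT-28d nuclei. In these same 2 settings Dcx turned to 1.59 and 1.81, Sox11 to 1.03 and 1.59, Sox4 to 1.27 and 1.90, and Draxin to 1.15 and 1.27, whereas Igfbpl1 (0.711 and 0.976) and Dlx1 (0.351 and 0.769) stayed below 1 and Dlx2 stayed at 0 UMIs in WBRT-28d. Draxin turned also to 1.08 with doublets kept and 1.11 after thinning to 1000 UMIs, where the cause was not tested. Over all nuclei, 38 of 45 values of single members lay within the interval of the value reported and 7 did not. Of these 7, Sox4 crossed 1, from 1.06 to 0.925 with the mean of CPM per nucleus. With 1 library per condition the spread between mice is not known, and 11 WBRT-28d nuclei limit every level within the class. No paired analysis was possible because each condition has 1 library.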
